A study of Homo sapiens with 6 samples.

Results

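The 44 genes of collagen alpha chains were examined in PC3, an established human line of androgen-independent prostate cancer cells that came from bone. They were taken from the 24462 gene symbols of the count files as every symbol written COL, a number, A and a number, and where a symbol had several rows, as 286 did, only its best-covered row was used. Among the collagens COL11A2 had 7 rows. The cells had been transfected for 72 h with siRNA at 80 nM, in 3 cultures with the non-targeting si-Control and in 3 cultures with si-CITED2, which targets the transcriptional coregulator CITED2. All cultures were grown in RPMI1640 with heat-inactivated serum, and the study describes the 3 experiments as independent. The comparison rests on 1 cell line, 1 control siRNA and, per the study's methods, 1 siRNA sequence against CITED2, so effects of CITED2 loss and of that sequence cannot be told apart.

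Collagen chains fold into trimers in the endoplasmic reticulum, with the help of enzymes that hydroxylate proline and lysine, and are secreted, trimmed and crosslinked outside the cell. Fibrillar collagens form the cables of connective tissue, network-forming type IV collagen makes the sheet of basement membranes, type VII collagen anchors that sheet to the stroma, and fibril-associated collagens with interrupted helices (FACIT) sit on the surface of fibrils. Epithelial cells typically make basement membrane collagens and membrane-spanning collagens, whereas type I and type III fibrils come mostly from fibroblasts.

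The libraries held between 19508925 and 28936374 counts, at which 3 counts, the smallest level taken as detectable, corresponded to 0.104 to 0.154 CPM (counts scaled to a common library total). CITED2 itself, the targeted gene, was not lower in the libraries labelled si-CITED2. Its normalized counts were 858.6, 892.0 and 773.0 in si-Control and 1084, 921.1 and 983.9 in the libraries labelled si-CITED2, a log2 fold change of 0.24 (SE 0.07, adjusted p = 0.0363). The mRNA level therefore went against the label. The study checked the knockdown by immunoblot of the CITED2 protein, which was not analysed here. Each direction below is drawn between libraries as labelled. Among marker genes, the 4 epithelial genes summed to 34597 to 36502 normalized counts in si-Control and to 37732 to 40988 in the libraries labelled si-CITED2. KRT8 and KRT18 were higher and EPCAM and CDH1 lower. None of 6 fibroblast markers was abundant enough to be tested, and together they gave 5.33 to 18.8 normalized counts in si-Control and 11.5 to 41.3 in the libraries labelled si-CITED2, with the fibroblast matrix genes DCN and LUM at no more than 2.35 in any library and PDGFRA at 0.89, 0.81 and 2.35 beside 13.4, 7.64 and 7.67. Endothelial markers gave 11.8 to 19.6 and 12.4 to 14.6. Whether fewer cells of one kind or less RNA per cell lay behind a difference cannot be told apart in bulk RNA.

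Of the 44 collagen genes, 27 passed the filter on low counts and were tested among 16314 genes. With edgeR's quasi-likelihood test and Benjamini-Hochberg adjustment over all of these, 8 collagen genes were higher in the libraries labelled si-CITED2, where 9.36% of all genes tested were higher. The 8 were COL7A1, COL4A1, COL4A2, COL16A1, COL5A1, COL27A1, COL11A2 and COL9A2. Another 2 collagen genes, COL13A1 and COL17A1, were lower, where 8.09% of all genes tested were lower. The remaining 17 did not pass the test, with log2 fold changes from -0.65 to 0.54. The groups did not overlap for 12 of the 27, which include each of the 10 genes called, where 32.5% of all genes tested did not overlap. The median log2 fold change of the 27 was 0.11 and the median of its absolute size 0.43, beside -0.0014 and 0.14 for all genes tested. The absolute size also takes in counting error, and 13 of the 27 had under 100 normalized counts in both groups. Coverage was not matched between the 27 and all genes, so these medians do not show a larger response of collagens. The filter's level of 0.43 CPM was reached in all 6 libraries by 23 of the 27, whereas COL5A1 and COL9A3 reached it throughout only in the libraries labelled si-CITED2. COL5A1 reached it in none of the si-Control libraries, so it entered the test through the group where it was high, and its call carries no weight beside the other 7.

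**Figure D1:**
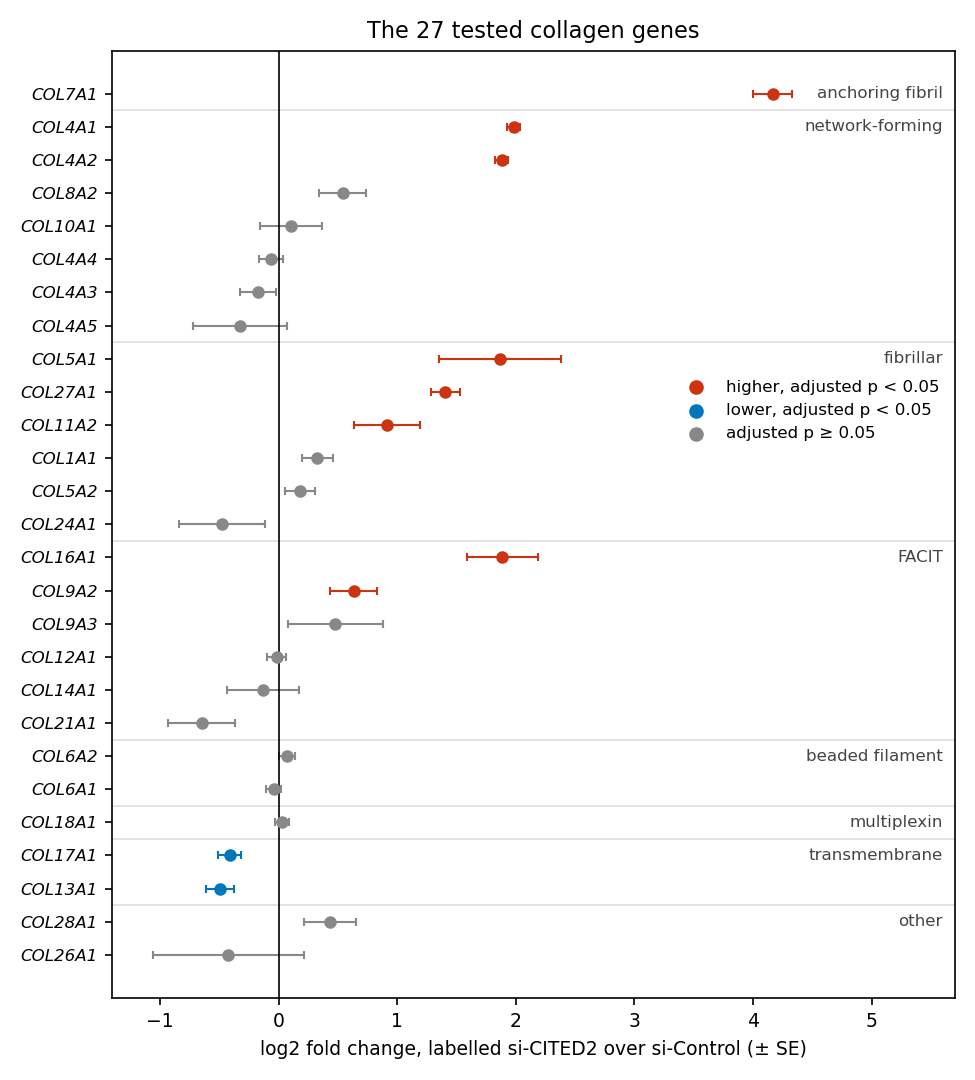
Log2 fold change of normalized counts (x axis, libraries labelled si-CITED2 over si-Control) of the 27 tested collagen genes, grouped by structural class from top to bottom. Points are edgeR estimates with bars of 1 SE, red for higher, blue for lower and grey for genes that did not pass an adjusted p of 0.05. COL7A1 lies at 4.17, COL4A1 and COL4A2 at 1.98 and 1.88, and the 2 blue points are COL13A1 and COL17A1, the tested transmembrane collagens.

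COL7A1, the single chain of the anchoring fibrils below epithelia, was low in si-Control and well covered in the libraries labelled si-CITED2. It gave 15.1, 27.4 and 27.1 normalized counts in si-Control, from 17, 34 and 23 counts as deposited, and 411.6, 425.2 and 408.7 in the libraries labelled si-CITED2, from 339, 445 and 373. The 3 libraries labelled si-CITED2 lay within a narrow band far above every si-Control library. The mean rose from 23.2 ± 7.0 to 415.2 ± 8.8 (SD, n = 3), a log2 fold change of 4.17 (SE 0.16, adjusted p = 1.72e-11). Leaving out any 1 library gave between 3.92 and 4.34.

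COL4A1 and COL4A2 encode the chains that assemble into the most widespread basement membrane network. COL4A1 gave 689.7, 725.4 and 688.3 normalized counts in si-Control and 2684, 2884 and 2748 in the libraries labelled si-CITED2. COL4A2 gave 1302, 1360 and 1225 in si-Control and 4739, 4910 and 4698 in the libraries labelled si-CITED2. For both genes every library labelled si-CITED2 held more than 3 times the level of any si-Control library. COL4A1 rose from 701.1 ± 21.0 to 2772 ± 102 and COL4A2 from 1296 ± 67.7 to 4782 ± 113 (SD, n = 3). The log2 fold changes were 1.98 for COL4A1 (SE 0.06, adjusted p = 2.71e-13) and 1.88 for COL4A2 (SE 0.05, adjusted p = 2.71e-13).

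The other chains of type IV collagen did not pass the test. COL4A3 and COL4A4, which assemble with the COL4A5 chain into the network known from kidney glomeruli and lung, share a head-to-head arrangement on chromosome 2 as COL4A1 and COL4A2 do on chromosome 13. COL4A4 gave 341.3, 420.3 and 414.2 normalized counts in si-Control and 358.2, 365.0 and 401.0 in the libraries labelled si-CITED2, a log2 fold change of -0.06 (SE 0.10, adjusted p = 0.737). COL4A3 gave 130.7, 167.5 and 188.3 in si-Control and 148.1, 158.6 and 121.6 in the libraries labelled si-CITED2, a log2 fold change of -0.17 (SE 0.15, adjusted p = 0.516). In both genes the groups overlapped. COL4A5 was low, at 19.4 ± 6.3 and 15.4 ± 7.2 normalized counts, and COL4A6 was not tested, with 13 counts over all si-Control libraries and 6 over those labelled si-CITED2. Of the remaining network-forming collagens, COL8A2, a chain of the type VIII lattice, went from 44.9 ± 6.4 to 66.1 ± 6.6 (SD, n = 3) with no overlap between the groups and an adjusted p of 0.0777. COL10A1, known from hypertrophic cartilage, stood at 54.2 ± 18.1 and 56.5 ± 16.4.

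**Figure D2:**
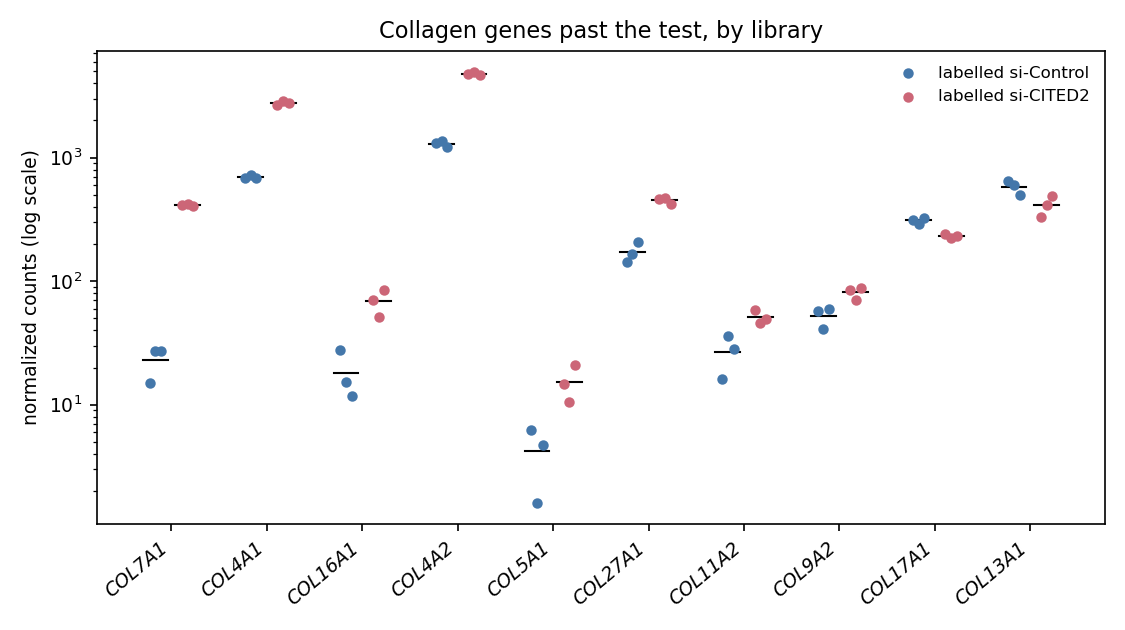
Normalized counts (y axis, log scale) of the 10 collagen genes past an adjusted p of 0.05, with 1 point for each library and a bar at the mean of 3, si-Control beside the libraries labelled si-CITED2. The groups of each gene are apart. The points of COL4A1 and COL4A2 lie close together, whereas the points of COL5A1, COL16A1 and COL11A2 are spread.

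The bases before the start sites of some of the collagen genes past the test are shown. Not every such gene with a promoter entry is included, and COL16A1, whose call was kept in every refit, is left out. COL4A1 and COL4A2, which were both higher, share the interval between their starts. The other promoters set genes that rose beside the genes that fell. Promoter activity was not measured, and a part of these sequences in the changes was not tested. The sequences are RefSeq's, on build GRCh38.p14, from the first base upstream, 5′ to 3′ on the named strand. The COL4A1 and COL4A2 starts lie 126 bases apart and are read outward, so the printed interval is all of the DNA between them (chr13:110307158-110307283, plus strand). COL7A1 is read on the minus strand (chr3:48595330-48595579) and COL27A1 on the plus strand (chr9:114155287-114155536). COL13A1 is on the plus strand (chr10:69801656-69801905) and COL17A1 on the minus strand (chr10:104085881-104086130). Capitals mark the GC box letters GGGCGG and the TATA box letters TATAAA, on either strand and at any distance from the start.
COL4A1 and COL4A2: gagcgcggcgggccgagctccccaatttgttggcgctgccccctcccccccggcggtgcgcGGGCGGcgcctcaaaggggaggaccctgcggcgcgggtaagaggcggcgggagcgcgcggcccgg
COL7A1: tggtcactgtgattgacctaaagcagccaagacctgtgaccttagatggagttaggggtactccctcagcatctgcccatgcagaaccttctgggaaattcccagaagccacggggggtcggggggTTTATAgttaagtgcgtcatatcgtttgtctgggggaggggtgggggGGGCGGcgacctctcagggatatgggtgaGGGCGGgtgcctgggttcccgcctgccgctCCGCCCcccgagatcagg
COL27A1: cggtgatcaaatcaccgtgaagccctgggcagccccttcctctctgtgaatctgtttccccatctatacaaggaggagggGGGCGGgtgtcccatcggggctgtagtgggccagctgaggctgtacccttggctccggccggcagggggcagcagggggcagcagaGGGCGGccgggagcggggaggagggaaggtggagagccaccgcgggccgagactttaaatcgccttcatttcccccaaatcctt
COL13A1: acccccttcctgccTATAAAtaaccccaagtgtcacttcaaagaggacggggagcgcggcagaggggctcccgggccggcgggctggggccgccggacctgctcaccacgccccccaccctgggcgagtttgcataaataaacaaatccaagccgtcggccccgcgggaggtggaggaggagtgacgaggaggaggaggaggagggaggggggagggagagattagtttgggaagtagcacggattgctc
COL17A1: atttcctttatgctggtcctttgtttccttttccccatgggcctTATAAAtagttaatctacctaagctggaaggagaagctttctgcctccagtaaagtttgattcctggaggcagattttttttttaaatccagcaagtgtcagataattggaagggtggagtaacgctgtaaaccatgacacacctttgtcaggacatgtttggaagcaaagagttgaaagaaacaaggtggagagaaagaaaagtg

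Of the 44 genes, 32 had a promoter entry and 12 had none. GGGCGG was present in the 250 bases before the start of 7 of the 8 genes that were higher, of neither gene that was lower, of 6 of 12 genes not called and of 5 of 10 not tested. It was present in 42.6% of 35116 windows of that length. These letters are all G or C, and the windows differed in GC content. Median GC was 72.4% for the genes that were higher and 52.2% for those that were lower. It was 63.0% for genes not called, 65.8% for those not tested and 58.0% over all windows. COL5A1, whose call carries no weight, is among the 7, and a link of the motif to the changes was not tested. COL4A1 and COL4A2 have overlapping windows and are not independent, and the windows with the most matches were those of COL18A1 with 9 and COL8A2 with 7, neither of which passed the test. TATAAA was present before both genes that were lower, before COL7A1 among those that were higher, and in 10.7% of all windows. It was also present before COL6A2, which was not called, and before COL6A6, which was not tested. Matches were counted anywhere in the 250 bases, so they do not show a working TATA box. The letters CAGAC, known as a SMAD-binding element, were present before 3 of the 8 genes that were higher and in 38.0% of all windows. CCAAT was present before 2 of the 8, with 32.0% of all windows. The AP-1 letters TGANTCA were found before none of the 32 genes and in 6.57% of all windows. Both strands were searched, and no motif contains the letters of another.

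Fibrillar collagens were mostly scarce. Of 11 in the files, 6 were tested, 3 were higher and none was lower, beside 9.36% and 8.09% of all genes tested. The 3 include COL5A1, whose call carries no weight. COL27A1, a fibrillar collagen known from cartilage, was the best measured of those that rose. It gave 142.2, 166.7 and 207.1 normalized counts in si-Control and 460.2, 473.0 and 421.8 in the libraries labelled si-CITED2, well apart from each other. The mean went from 172.0 ± 32.8 to 451.7 ± 26.6 (SD, n = 3), a log2 fold change of 1.41 (SE 0.12, adjusted p = 3.12e-07).

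COL11A2 and COL5A1, chains of collagens that control the width of fibrils, were nearer the limit of the test. COL11A2 gave 16, 36.2 and 28.2 normalized counts in si-Control and 58.3, 45.9 and 49.3 in the libraries labelled si-CITED2, a log2 fold change of 0.92 (SE 0.28, adjusted p = 0.0316). Its call was kept in 1 of the 6 fits that left out a library, that without si-Control replicate 2, and the log2 fold change ranged from 0.64 to 1.23. For COL5A1 the deposited counts were 7, 2 and 4 in si-Control and 12, 11 and 19 in the libraries labelled si-CITED2, or 13 against 42 in all. Having entered the test through the libraries where it was high, it had a log2 fold change of 1.87 (SE 0.52, adjusted p = 0.0187), and the call was lost without si-Control replicate 2 (adjusted p = 0.113) and without si-CITED2 replicate 3 (adjusted p = 0.102). Per unit of depth the summed counts gave a ratio of 3.69 with an exact 95% interval of 1.94 to 7.49, which covers counting error only.

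COL5A2, the partner chain of COL5A1, was better covered and its groups overlapped. It gave 169.8, 233.5 and 221.2 normalized counts in si-Control and 216.1, 240.8 and 249.8 in the libraries labelled si-CITED2, a log2 fold change of 0.18 (SE 0.13, adjusted p = 0.397). COL1A1, one chain of type I collagen, gave 125.3, 124.0 and 116.5 in si-Control and 139.6, 158.6 and 160.0 in the libraries labelled si-CITED2. These groups did not overlap, and the log2 fold change of 0.32 (SE 0.13) had an adjusted p of 0.105. COL1A2, the other chain of type I collagen, had no more than 2 counts in any library. The counts of COL3A1 were 2, 6 and 8 in si-Control and 2, 8 and 2 in the libraries labelled si-CITED2, so that the major fibrillar chains of fibroblasts were at or near the detection limit apart from COL1A1. COL24A1 was tested at 31.0 ± 10.6 and 22.3 ± 10.3 normalized counts with overlap. The fibroblast markers were too scarce to be tested, with overlapping sums of at most 18.8 normalized counts in si-Control and 41.3 in the libraries labelled si-CITED2, and DCN and LUM were at or near 0.

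Of 10 FACIT collagens, 6 were tested, 2 were higher and none was lower, beside 9.36% and 8.09% of all genes tested. COL16A1, which associates with fibrils and with the edge of basement membranes, gave 27.6, 15.3 and 11.8 normalized counts in si-Control and 70.4, 51.6 and 85.5 in the libraries labelled si-CITED2. The spread within each group was wide, yet the lowest library labelled si-CITED2 lay above the highest si-Control library. Its mean went from 18.2 ± 8.3 to 69.2 ± 17.0 (SD, n = 3), a log2 fold change of 1.89 (SE 0.30, adjusted p = 0.000255). COL9A2, a chain of the type IX collagen that coats cartilage fibrils, gave 56.9, 41.1 and 60.0 in si-Control and 85.0, 70.7 and 87.7 in the libraries labelled si-CITED2. Its log2 fold change was 0.63 (SE 0.20, adjusted p = 0.0361), and the call was lost without si-Control replicate 2, without si-CITED2 replicate 1 or without si-CITED2 replicate 3, with adjusted p-values of 0.160, 0.0923 and 0.135. The partner chain COL9A3 stood at 16.7 ± 9.4 and 24.2 ± 9.8 normalized counts with overlap, and COL9A1 had 4 counts over all si-Control libraries and none in the others.

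COL12A1, the most abundant FACIT gene here and a collagen of tensile tissues, did not pass the test. It gave 1211, 1462 and 1304 normalized counts in si-Control and 1446, 1218 and 1277 in the libraries labelled si-CITED2, a log2 fold change of -0.02 (SE 0.08, adjusted p = 0.917). COL14A1 stood at 26.6 ± 7.7 and 24.0 ± 4.5 with overlap. COL21A1 gave 50.7, 57.2 and 69.4 in si-Control and 24.3, 29.6 and 58.1 in the libraries labelled si-CITED2, so that si-CITED2 replicate 3 lay within the range of si-Control. Its log2 fold change was -0.65 (adjusted p = 0.133) with all libraries and -1.11 (adjusted p = 0.0139) without that replicate.

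Both measured chains of type VI collagen, whose beaded filaments surround cells, were among the most abundant collagen mRNAs. COL6A1 gave 2398, 2716 and 2840 normalized counts in si-Control and 2648, 2628 and 2445 in the libraries labelled si-CITED2, a log2 fold change of -0.04 (SE 0.06, adjusted p = 0.725). COL6A2 gave 2514, 2472 and 2434 in si-Control and 2880, 2565 and 2359 in the libraries labelled si-CITED2, a log2 fold change of 0.07 (SE 0.06, adjusted p = 0.517). The groups overlapped for both. COL6A3, the large chain that joins these in type VI collagen, was hardly seen, with counts of 1, 1 and 0 in si-Control and 3, 4 and 0 in the libraries labelled si-CITED2.

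COL18A1, the basement membrane multiplexin from which endostatin is cleaved, overlapped between the groups at a high level. It gave 3308, 3731 and 3878 normalized counts in si-Control and 3670, 3783 and 3659 in the libraries labelled si-CITED2, a log2 fold change of 0.03 (SE 0.06, adjusted p = 0.815). COL15A1, the related multiplexin, yielded counts of 1, 3 and 1 in si-Control and 16, 19 and 6 in the libraries labelled si-CITED2 and did not pass the filter. Summed over libraries, 5 counts stood against 41, a ratio per unit of depth of 9.37. The exact 95% interval of 3.70 to 30.4 covers counting error only, not the spread between cultures. Without the filter COL15A1 had an adjusted p of 0.00067, as 1 of the 17 untested collagen genes, and the other 16 did not pass 0.05 there. It is singled out after its values were seen.

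Of 4 transmembrane collagens in the files, 2 were tested, COL17A1 and COL13A1. Both were lower, where 8.09% of all genes tested were lower. The others were too scarce, COL23A1 with 9 counts over all si-Control libraries and 8 over those labelled si-CITED2, and COL25A1 with 0 and 7. COL17A1, a component of the hemidesmosome of basal epithelial cells, gave 312.8, 289.8 and 327.1 normalized counts in si-Control and 240.4, 223.6 and 233.4 in the libraries labelled si-CITED2. Its groups were narrow and apart, and the mean fell from 309.9 ± 18.8 to 232.5 ± 8.5 (SD, n = 3), a log2 fold change of -0.41 (SE 0.10, adjusted p = 0.00821). COL13A1, found at cell-matrix and neuromuscular junctions, gave 641.7, 598.2 and 500.1 in si-Control and 332.7, 415.6 and 490.8 in the libraries labelled si-CITED2. Here the nearest libraries of the groups almost met, and the mean fell from 580.0 ± 72.6 to 413.1 ± 79.1, a log2 fold change of -0.49 (SE 0.12, adjusted p = 0.00819). Both calls were kept whichever library was left out, with log2 fold changes from -0.46 to -0.38 for COL17A1 and from -0.63 to -0.37 for COL13A1. The fitted falls were 1.41-fold for COL13A1 and 1.33-fold for COL17A1, beside 1.55-fold for COL9A2, the smallest of the 8 fitted rises.

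COL28A1 and COL26A1, which belong to neither a fibril nor a network class here, gave 70.7 ± 25.9 and 97.3 ± 13.3, and 13.8 ± 6.2 and 10.6 ± 13.6 normalized counts (SD, n = 3) in si-Control and in the libraries labelled si-CITED2. Both overlapped. COL26A1 had 3, 2 and 24 counts in the libraries labelled si-CITED2, and without replicate 3 its log2 fold change moved from -0.42 (adjusted p = 0.723) to -2.34 (adjusted p = 0.0302). COL28A1 moved from 0.43 (adjusted p = 0.209) to 0.80 (adjusted p = 0.0145) without si-Control replicate 2. The 17 untested collagen genes had no more than 19 counts in any library, 4 of the 44 genes stayed under 3 counts in every library, and 5 of the untested genes had no count in one of the groups. Among these, COL25A1 had none in si-Control and 0, 3 and 4 in the libraries labelled si-CITED2.

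Of the counts in the rows kept, 1 row a symbol, all 44 genes together took 0.0581%, 0.0644% and 0.0637% in the si-Control libraries. They took 0.0888%, 0.0886% and 0.0856% in the libraries labelled si-CITED2. The mean share rose from 0.0620 ± 0.0035% to 0.0877 ± 0.0018% (SD, n = 3), 1.41-fold, described without a test because the genes were chosen with results known. Without COL4A1 and COL4A2 the shares were 0.0535 ± 0.0034% and 0.0558 ± 0.0016%, or 1.04-fold. Of all collagen counts, COL4A2 took 8.23% to 9.49% in si-Control and 22.6% to 23.4% in the libraries labelled si-CITED2. COL18A1 took 24.1% to 26.1% and then 17.5% to 18.0%. COL7A1, with the steepest rise, took 0.11% to 0.18% and then 1.96% to 2.02%.

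**Figure D3:**
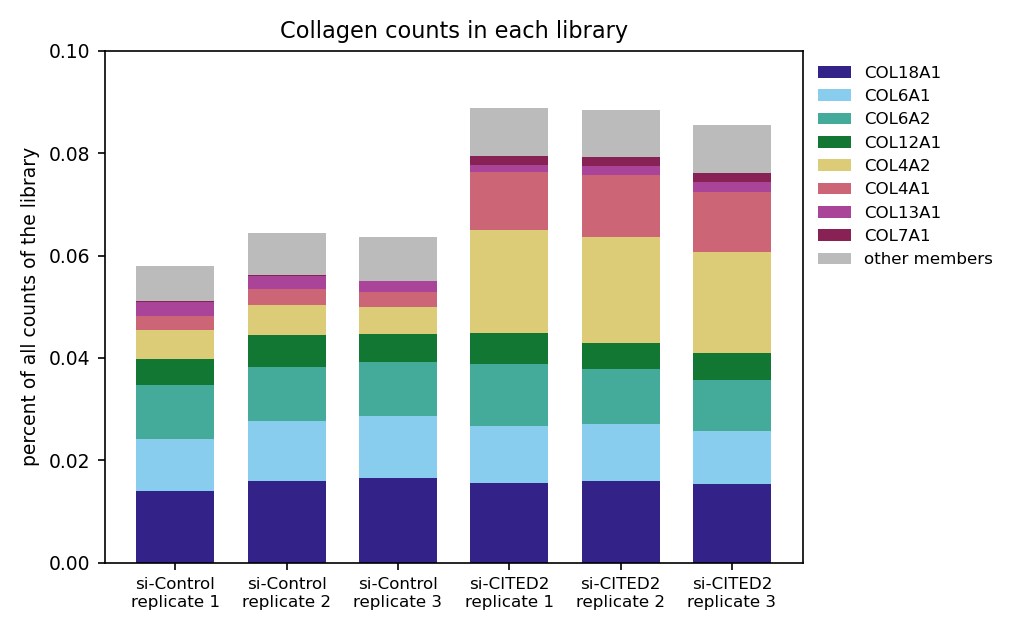
Share of all counts in percent (y axis, starting at 0) taken by collagen genes in each of the 6 libraries (x axis). Segments are stacked by gene for abundant genes and for COL7A1, with the rest together. The bars, drawn over the counts of all deposited rows, reach about 0.06% in si-Control and about 0.09% in the libraries labelled si-CITED2. The segments of COL4A1, COL4A2 and, much thinner, COL7A1 are wider in the libraries labelled si-CITED2.

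Levels of different genes were compared per kilobase of the longest coding transcript. Which transcript PC3 makes was not determined, so the order between genes depends on that length. In si-Control the order of normalized counts per kilobase was led by COL6A2 at 714.6 ± 11.6, then COL6A1 at 625.6 ± 53.8 and COL18A1 at 552.5 ± 44.9 (SD, n = 3). The ranges of COL6A1 and COL18A1 overlapped, while COL6A2 was above both. COL4A2 at 199.5 ± 10.4 and COL13A1 at 182.0 ± 22.8 overlapped, as did COL12A1 at 113.1 ± 10.8 and COL4A1 at 106.0 ± 3.2. In the libraries labelled si-CITED2, COL4A2 at 736.4 ± 17.3 overlapped with COL6A2 at 751.6 ± 75.8 at the head of the order. COL6A1 at 607.3 ± 26.4, COL18A1 at 562.4 ± 10.4 and COL4A1 at 419.0 ± 15.4 followed. The ranges of COL6A1 and COL18A1 almost met, with a lowest value of 576.9 against a highest of 574.4, and COL4A1 was below both. COL7A1 went from 2.50 ± 0.75 to 44.8 ± 0.95 normalized counts per kilobase and from place 26 to place 9 of the 44 genes.

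Chains of one molecule were compared within libraries, which needs no normalization between them. The ratio of COL4A1 to COL4A2 counts was 0.530, 0.534 and 0.562 in si-Control and 0.566, 0.587 and 0.585 in the libraries labelled si-CITED2. The mean log2 ratio was -0.88 ± 0.05 and -0.79 ± 0.03 (SD, n = 3), a difference of 0.10 (exact two-sided permutation p = 0.1, the smallest that 3 against 3 can give). All 3 ratios in the libraries labelled si-CITED2 were above those in si-Control, by little beside the rise of either gene. The ratio of COL6A1 to COL6A2 was 0.954, 1.10 and 1.17 in si-Control and 0.920, 1.03 and 1.04 in the libraries labelled si-CITED2 (exact two-sided permutation p = 0.4). For type I collagen the mean counts were 136.8 for COL1A1 and 1 for COL1A2, and for type VI 1.5 for COL6A3 beside 2608 for COL6A1, so no ratio was tested for these.

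Genes that act on collagens were counted in 4 lists, 51 genes in all, of which 46 were tested. Of these, 16 were higher and 1 was lower, where 9.36% of all genes tested were higher and 8.09% lower. The 16 include MMP9, which entered the test only through the libraries where it was high, so its call carries no weight. Of 21 enzymes that fold, modify and crosslink collagen, all were tested, 8 were higher (9.36% over all genes) and none was lower, and the median log2 fold change was 0.20. P4HA2, the catalytic subunit of a prolyl hydroxylase, went from 1339 ± 22.7 to 2218 ± 193 normalized counts (SD, n = 3; log2 fold change 0.73, adjusted p = 3.47e-07), and P4HA3 of the same family from 61.0 ± 7.7 to 118.5 ± 9.6 (0.95, adjusted p = 0.000576). PLOD2, the lysyl hydroxylase of collagen telopeptides, went from 9426 ± 58.0 to 14293 ± 210 (0.60, adjusted p = 4.54e-08). LOXL2, which crosslinks type IV collagen among other substrates, went from 1904 ± 113 to 2796 ± 104 (0.55, adjusted p = 2.42e-06).

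Of 13 genes for processing and secretion of procollagen, 10 were tested, 1 was higher and 1 was lower, near the 9.36% and 8.09% of all genes tested. The procollagen C-proteinase BMP1 went from 572.3 ± 29.1 to 769.4 ± 70.8 normalized counts (SD, n = 3; log2 fold change 0.43, adjusted p = 0.00099). MIA3, which loads bulky procollagens into vesicles, fell from 3855 ± 287 to 3402 ± 13.3 (log2 fold change -0.18, adjusted p = 0.0332). The list had a median log2 fold change of 0.03.

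All 10 collagen receptors were tested, 5 were higher and none was lower, with a median log2 fold change of 0.37, where 9.36% of all genes tested were higher. ITGA2, the alpha subunit of the main collagen-binding integrin of epithelial cells, gave 2110, 2297 and 2460 normalized counts in si-Control and 8182, 8520 and 7782 in the libraries labelled si-CITED2, a log2 fold change of 1.84 (SE 0.06, adjusted p = 1.21e-12). ITGA1, which pairs with the same beta subunit and prefers type IV collagen, went from 130.5 ± 13.3 to 234.7 ± 11.4 (SD, n = 3; 0.85, adjusted p = 0.000107). The uptake receptor MRC2 (0.56, adjusted p = 1.85e-05) and the receptor kinase DDR1 (0.52, adjusted p = 4.73e-06) were also higher.

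Of 7 collagen-cleaving proteases, 5 were tested, 2 were higher and none was lower, with a median log2 fold change of 0.41, where 9.36% of all genes tested were higher. The membrane-bound collagenase MMP14 went from 2271 ± 67.1 to 4936 ± 306 normalized counts (SD, n = 3; 1.12, adjusted p = 2.42e-10). The gelatinase MMP9, which degrades type IV collagen, was counted 3, 1 and 1 times in si-Control. In the libraries labelled si-CITED2 it was counted 22, 31 and 15 times (adjusted p = 6.64e-05). The ratio per unit of depth was 15.5, with an exact 95% interval of 6.34 to 49.4 that covers counting error only. MMP9 too entered the test only through the libraries where it was high, which leaves MMP14 as the other call of the list. MMP1, an interstitial collagenase, had a log2 fold change of -0.87 with an adjusted p of 0.116. Of the 4 epithelial markers, the keratins KRT8 (log2 fold change 0.24, adjusted p = 0.0026) and KRT18 (0.18, adjusted p = 0.0267) were higher, and the adhesion genes EPCAM (-0.33, adjusted p = 0.0011) and CDH1 (-0.52, adjusted p = 1.67e-05) were lower, and their part in the changes of these lists was not tested.

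**Figure D4:**
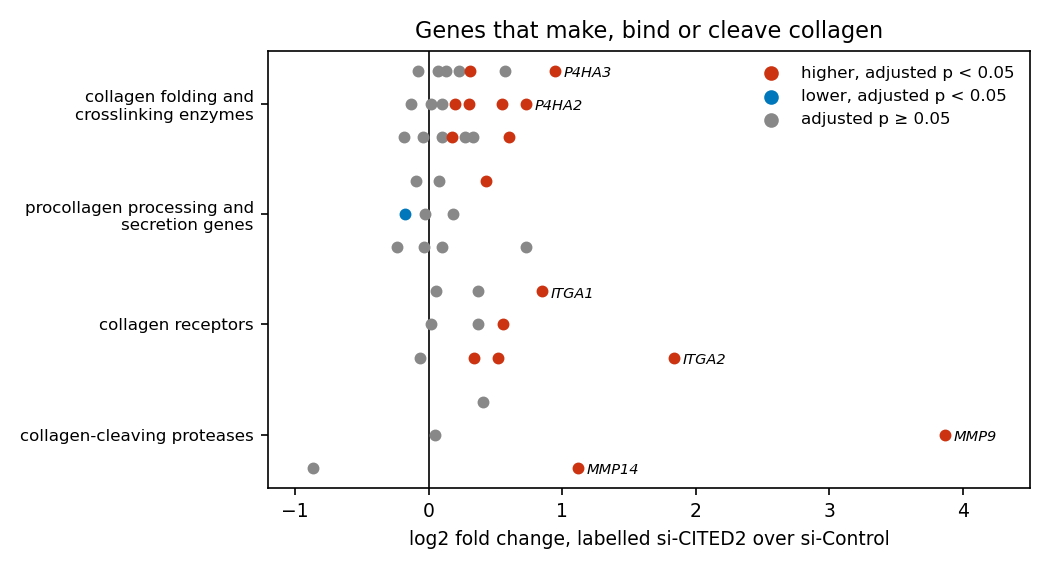
Log2 fold change of normalized counts (x axis, libraries labelled si-CITED2 over si-Control) of the tested genes of the 4 lists of collagen-related genes, 1 point a gene, with coloured points past an adjusted p of 0.05. In the enzymes 8 of 21 points are higher, in the receptors 5 of 10 and in the proteases 2 of 5, MMP9 included. In processing and secretion 1 is higher and 1 lower among 10. The fitted value of MMP9 depends on edgeR's prior count, since si-Control had 1 to 3 counts.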

How the data were processed

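RNA-seq was available for 3 si-Control and 3 si-CITED2 cultures, grouped by the sample labels. For each library the authors deposited a table of raw, unnormalized counts by gene symbol. The submitters' processing notes name TopHat, edgeR and build hg19, without versions. The counting program, the annotation and the use of strand are not given in the sources used here, so reads of COL4A2, COL18A1 and COL5A1 cannot be told from those of overlapping antisense genes.

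The analysis used edgeR 4.0.16 in R 4.3.3, with filterByExpr at its defaults, TMM, and the quasi-likelihood test without a block, since the study states unpaired tests, fitted to 16314 genes with Benjamini-Hochberg adjustment. A gene was called at an adjusted p under 0.05. SE was taken from the F statistic. To obtain normalized counts, each library was scaled from its TMM-adjusted size to the mean of these sizes, 23554403. The coefficient of biological variation that edgeR estimated over all genes was 0.061. Levels per kilobase used the longest coding transcript in GENCODE 29. Log2 ratios of chains used a pseudocount of 0.5. The fit was also run on simulated data, with the same dispersion in all genes and changes planted only in well-covered genes. That simulation does not bear on the scarce collagen genes.

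The collagen rule, the gene lists and the motifs were chosen with earlier results of these data known. Named with their values were all collagen genes called, those with at least 100 normalized counts in a group and the 3 highest per kilobase, and up to 4 called genes of each other list with the largest changes. Other genes named fell outside this rule. The alternatives were DESeq2 1.42.0, no TMM, other filters, a fold limit of 2, a replicate block, summed rows and leaving out each library. Libraries carry no batch label.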

Additional observations from a re-analysis of the deposited data

How the results depend on the processing

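The log2 fold changes of the 27 tested collagen genes were refitted under up to 12 alternatives. Of 320 refits, 306 stayed on the same side of the threshold, 11 lost a call and 3 gained one. None of the 10 genes called changed sign, whereas 10 refits that left out a library gave the other sign for 7 genes not called (COL6A1, COL6A2, COL10A1, COL12A1, COL14A1, COL18A1 and COL26A1), with absolute log2 fold changes of at most 0.16. The calls of COL7A1, COL4A1, COL4A2, COL16A1, COL27A1, COL13A1 and COL17A1 were kept in every refit. DESeq2 called 6 collagen genes higher and 2 lower, with an adjusted p of 0.0645 for COL9A2 and none given for COL5A1. Without the filter 9 were higher, which adds COL15A1, and with a mean of at least 10 counts 7 were. Leaving out a library gave 6 to 8 higher and 2 to 4 lower, with 4 lower without si-CITED2 replicate 3. A 2-fold limit beside the adjusted p left 0 of the 2 that were lower.

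Leaving out a library gave 5 to 7 enzymes past the test against 8 with all libraries, 1 to 2 processing and secretion genes against 2, and DESeq2 called 1 protease against 2. For CITED2 mRNA the log2 fold change was 0.22 without TMM (adjusted p = 0.0518) and ranged from 0.17 to 0.29 when a library was left out, with the call lost in 4 of 6 such fits. The replicate block on the shared numbers gave 8 collagen genes higher and 2 lower, the same 10 genes, and 1405 higher and 1154 lower genes overall. Same-numbered libraries deviated with correlations of -0.04 to 0.03, beside -0.04 to 0.05 for libraries of different numbers. No shared deviation was seen, which cannot settle whether same-numbered cultures were run together. Depth limits the 13 tested genes under 100 normalized counts and the 17 untested ones.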
